A study of Mus musculus with 49 samples.

Results

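Arsenate at 2 ppm in drinking water for 12 weeks was compared with plain water in the urinary bladder of the mouse. The comparison takes the 10 arrays whose labels name these groups, 5 for 2 ppm and 5 for water, out of 49 arrays in the series. All mice were female C57Bl/J adults without a stated transgene, killed with carbon dioxide at an age of 155 days after 12 weeks with their water, which they drank ad libitum. The water group received the vehicle alone, and the other 12-week groups received 0.5, 10 or 50 ppm, also with 5 mice each. Groups of 1 week were 76 days old. Each array holds the RNA of the bladder of 1 mouse, not pooled, and the p-values thus reflect differences between animals. The mouse labels begin with a number that is common to each group. Its meaning is not given, and dose cannot be told apart from it. The question of the design is which transcripts of the bladder differ at each dose and time.

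Arsenate resembles phosphate and enters cells through phosphate carriers, is reduced to arsenite and is methylated, mainly in the liver, by the enzyme As3mt before it leaves in the urine. The bladder wall, with its urothelium, smooth muscle, connective tissue and vessels, therefore meets arsenic from the urine as well as from blood. Immediate early genes are switched on within minutes by growth factors, stretch, wounding or stress without new protein synthesis, and their mRNAs are short-lived. They include Fos, which pairs with Jun proteins in the transcription factor AP-1, and Ccn1, long called Cyr61, a secreted matrix protein switched on through the serum response factor and YAP.

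Fos and Ccn1 were the genes called at 2 ppm, and Dusp1 and Dusp6, phosphatases that switch off MAP kinases, are early genes whose groups did not overlap, shown as examples chosen after their values were seen. Egr1, whose groups did not overlap either, is described by its values only. The proximal promoters of these 4 genes are shown because early genes of this kind are known targets of factors that bind next to the start site. The 250 bases before the RefSeq start are printed 5′ to 3′ on the gene's strand, from the GRCm38.p6 build, with cAMP response elements and their core in capitals. The windows are chr12:85473640-85473889 on the plus strand for Fos, chr3:145649986-145650235 on the minus strand for Ccn1, chr17:26508473-26508722 on the minus strand for Dusp1 and chr10:99262981-99263230 on the plus strand for Dusp6.
Fos: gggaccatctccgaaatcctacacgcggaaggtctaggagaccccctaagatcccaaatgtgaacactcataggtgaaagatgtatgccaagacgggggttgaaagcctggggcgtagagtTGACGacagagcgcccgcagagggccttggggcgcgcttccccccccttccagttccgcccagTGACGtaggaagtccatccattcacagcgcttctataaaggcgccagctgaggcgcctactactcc
Ccn1: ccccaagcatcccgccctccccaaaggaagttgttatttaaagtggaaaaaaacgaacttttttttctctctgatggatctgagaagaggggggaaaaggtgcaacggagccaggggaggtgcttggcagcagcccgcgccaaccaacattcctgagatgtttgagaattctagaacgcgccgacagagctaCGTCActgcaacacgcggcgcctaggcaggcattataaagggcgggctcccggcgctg
Dusp1: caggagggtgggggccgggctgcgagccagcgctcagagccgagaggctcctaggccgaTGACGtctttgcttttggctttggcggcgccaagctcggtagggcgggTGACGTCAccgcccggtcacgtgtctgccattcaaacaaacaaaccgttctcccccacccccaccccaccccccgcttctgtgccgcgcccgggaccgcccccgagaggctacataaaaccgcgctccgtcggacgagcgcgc
Dusp6: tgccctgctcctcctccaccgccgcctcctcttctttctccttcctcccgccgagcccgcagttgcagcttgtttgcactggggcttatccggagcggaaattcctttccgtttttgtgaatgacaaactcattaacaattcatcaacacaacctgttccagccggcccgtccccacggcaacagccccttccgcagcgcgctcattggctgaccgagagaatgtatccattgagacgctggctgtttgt
The core searched was TGACG on both strands, so that its reverse complement CGTCA also counts, and it overlaps the full element TGACGTCA. In the Fos window the core stands 129 to 125 and 66 to 62 bases before the start, and in the Ccn1 window it lies 58 to 54 bases before the start on the opposite strand. Dusp1 holds the full element 143 to 136 bases before the start and a further core at 191 to 187. A TATAAA motif lies 33 to 28 bases before the Fos start and 25 to 20 bases before that of Ccn1. The Dusp6 window holds none of these motifs. The CArG box, the motif of the serum response factor, has no match in any of the 4 windows on either strand. Bases further upstream than these 250 were not searched, so a site there would be missed. Over 27025 promoter windows of this length, 17.8% hold the core, 1.6% the full element, 13% the TATAAA motif and 1.41% the CArG box. Of the 31 immediate early genes, out of 41 tested, whose windows could be matched by symbol, 15 hold the core, 3 the full element, 4 the TATAAA motif and 2 the CArG box. These matches describe the letters and are no measure of binding.

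Signals are linear intensities scaled to a common mean on each array, taken here as log2(value + 16), a scale with a floor of 4. A gene mean under 5 is called near the floor, and there the size of a difference depends on the offset. The number of arrays limits the precision. The RNA integrity number was 9.4 to 9.7 in water and 9.6 to 9.8 at 2 ppm, and the lowest correlation between 2 of the 10 arrays was 0.955 over the genes tested. The label of the tissue matched its markers. Upk3a, a uroplakin of the luminal urothelial plaque, had log2 signals of 14.43 to 14.82, Krt5, the keratin of basal urothelium, 13.01 to 13.60, and Acta2, the smooth muscle actin, 14.92 to 15.40 over these arrays. In whole bladders, fewer cells of a type and less RNA per cell cannot be told apart.

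At 2 ppm, 2 genes of 14618 passed the test, both lower than in water, which is 0.0137% of all genes tested. Fos fell by 1.90 ± 0.28 (SE) and Ccn1 fell by 2.52 ± 0.40 on the log2 scale, a 3.74-fold and a 5.72-fold lower signal. A gene is called here when its adjusted p from limma, after Benjamini-Hochberg adjustment over all genes, is under 0.05, and every adjusted p below comes from limma. At an unadjusted p under 0.05, 675 genes were higher (4.62%) and 774 lower (5.29%), 9.91% in all. The median difference over all genes was -0.01, and the median SE was 0.16. A difference of at least 1 was found for 45 genes above and 27 genes below water.

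Fos had log2 signals of 12.48, 13.83, 12.38, 12.96 and 12.97 in water replicates 1 to 5. At 2 ppm its log2 signals were 11.32, 10.58, 10.96, 11.74 and 10.51. Every mouse at 2 ppm lay below every mouse on water, and replicate 2 on water and replicate 4 at 2 ppm were the highest of their groups. The adjusted p was 0.00482, from the single probe set of the gene, and Fos was called in each fit that left out 1 of the 10 arrays.

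Ccn1 had log2 signals of 10.64, 11.22, 9.06, 10.69 and 11.01 in water. At 2 ppm they were 7.63, 7.68, 7.99, 9.15 and 7.60. Replicate 3 on water and replicate 4 at 2 ppm stood apart from their groups and touched each other's range, so that 4 of 5 mice at 2 ppm lay below the lowest water mouse. The adjusted p was 0.00737, and 0.0518 without water replicate 5. All 4 probe sets of Ccn1 were lower, but to unlike degrees. They differed by -2.68 ± 0.40, -2.52 ± 0.40, -0.63 ± 0.37 and -0.33 ± 0.42.

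Egr1, a zinc finger transcription factor of the early response, did not pass the test. Its log2 signals were 11.89, 13.34, 12.41, 12.79 and 12.56 in water and 11.45, 10.94, 10.16, 11.87 and 10.04 at 2 ppm. The groups did not overlap, though the highest mouse at 2 ppm lay only just below the lowest on water. The difference was -1.70 ± 0.34 with an adjusted p of 0.124, and the adjusted p ran from 0.0255 without 2 ppm replicate 4 to 0.543 without 2 ppm replicate 3. With a covariate for the poly-A spikes, described below, the difference was -1.08 with an adjusted p of 0.598.

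Dusp1 and Dusp6 also had groups that did not overlap, without passing the test. For Dusp1 the log2 signals were 11.87, 12.80, 11.84, 12.09 and 12.13 in water and 11.70, 10.75, 11.52, 11.84 and 10.49 at 2 ppm, and the difference was -0.89 ± 0.24. The nearest mice of the 2 groups differed only beyond the second decimal. Dusp6 stood at 10.28, 10.32, 10.31, 10.49 and 10.32 in water against 9.99, 10.02, 9.90, 10.00 and 9.76 at 2 ppm, a difference of -0.41 ± 0.13. Here each group was narrow. Ier2, a nuclear early response protein, had a difference of -0.53 ± 0.15, with 4 of 5 mice at 2 ppm below the lowest water mouse. The adjusted p was 0.426 for Dusp1 and Ier2 and 0.428 for Dusp6.

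**Figure D1:**
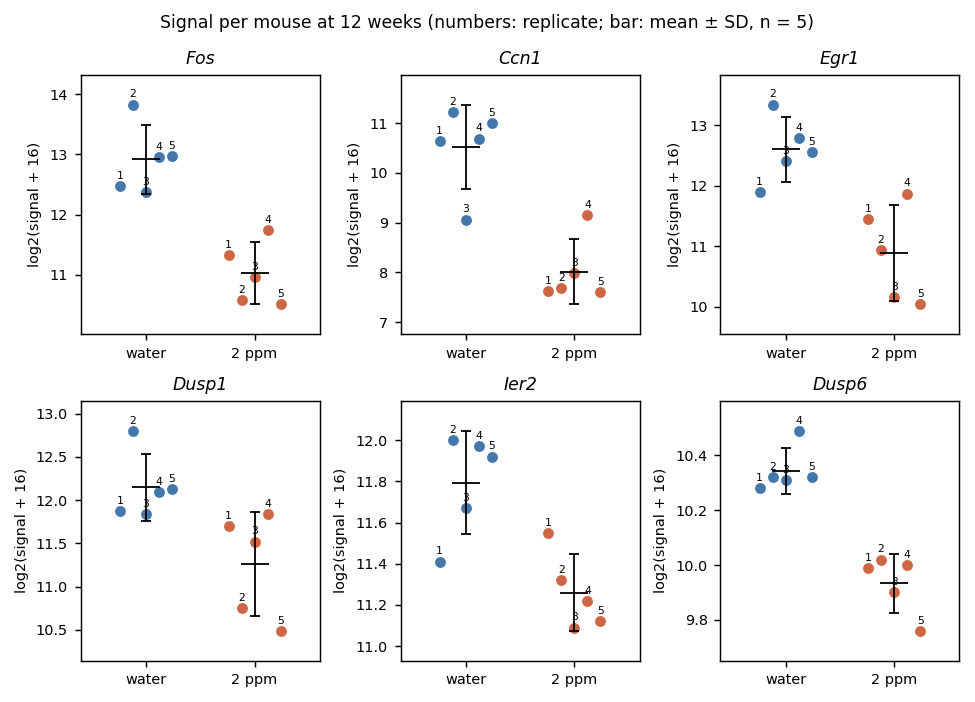
Log2(signal + 16) of 6 immediate early genes in each mouse, with 5 water mice in blue and 5 mice at 2 ppm in orange, the replicate number above each point and bars for mean ± SD. Fos ran from 12.38 to 13.83 in water and from 10.51 to 11.74 at 2 ppm, whereas the ranges of Ccn1 touch through water replicate 3 at 9.06 and 2 ppm replicate 4 at 9.15.

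The immediate early list as a whole was split in direction. Of 41 members tested, out of 42 listed, 22 were lower and 19 higher, with a median difference of -0.09 against -0.01 over all genes. Fos alone of them was called. Ccn1, also an early gene, is not in this list but in that of serum response factor and YAP targets, and these counts leave it out. At an unadjusted p under 0.05, 8 of the 41 were lower and 3 higher, against 5.29% and 4.62% of all genes. In 4 of them the groups did not overlap, all with the 2 ppm mice lower, against 1.15% of all genes. Besides the genes above, Btg2, an antiproliferative factor, had a difference of -0.40 ± 0.14, Fosl2, an AP-1 subunit, -0.29 ± 0.11, and Egr4 -0.77 ± 0.37. On the other side, the zinc finger factors Klf6 and Klf10 had differences of 0.46 ± 0.15 and 0.39 ± 0.14, and the orphan nuclear receptor Nr4a3 0.86 ± 0.41. None of these 6 passed the test (adjusted p of 0.447 to 0.499). The 5 probe sets of Klf6 ran from -0.43 to 0.73.

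Partners and relatives of the called genes did not pass the test. Jun, which pairs with Fos, had a difference of -0.13 ± 0.26, and Junb of -0.24 ± 0.19. Nr4a1, an orphan nuclear receptor, ran from 10.80 to 12.34 in water and from 9.35 to 12.77 at 2 ppm, so that replicate 4 at 2 ppm exceeded all water mice while 3 of its group lay below them. Ccn2, a close relative of Ccn1, had log2 signals of 10.28, 10.63, 9.71, 10.06 and 10.73 in water and 9.70, 9.50, 10.55, 12.09 and 9.52 at 2 ppm. Replicate 4 at 2 ppm was the highest of all 10 mice, and the difference of -0.01 ± 0.36 had an adjusted p of 0.996. The list of serum response factor and YAP targets also holds regulators such as Srf, Yap1, Tead1 and Wwtr1. Of its 27 genes, 15 were lower and 12 higher with a median of -0.01, and Ccn1 was the only one called. Wwtr1, the coactivator also called TAZ, was higher in every 2 ppm mouse than in any water mouse, on the probe set used, with a difference of 0.36 ± 0.12 that did not pass the test (adjusted p = 0.451). Its other probe sets differed by -0.02 and 0.04. The tropomyosin Tpm4 had a difference of 0.35 ± 0.13.

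**Figure D2:**
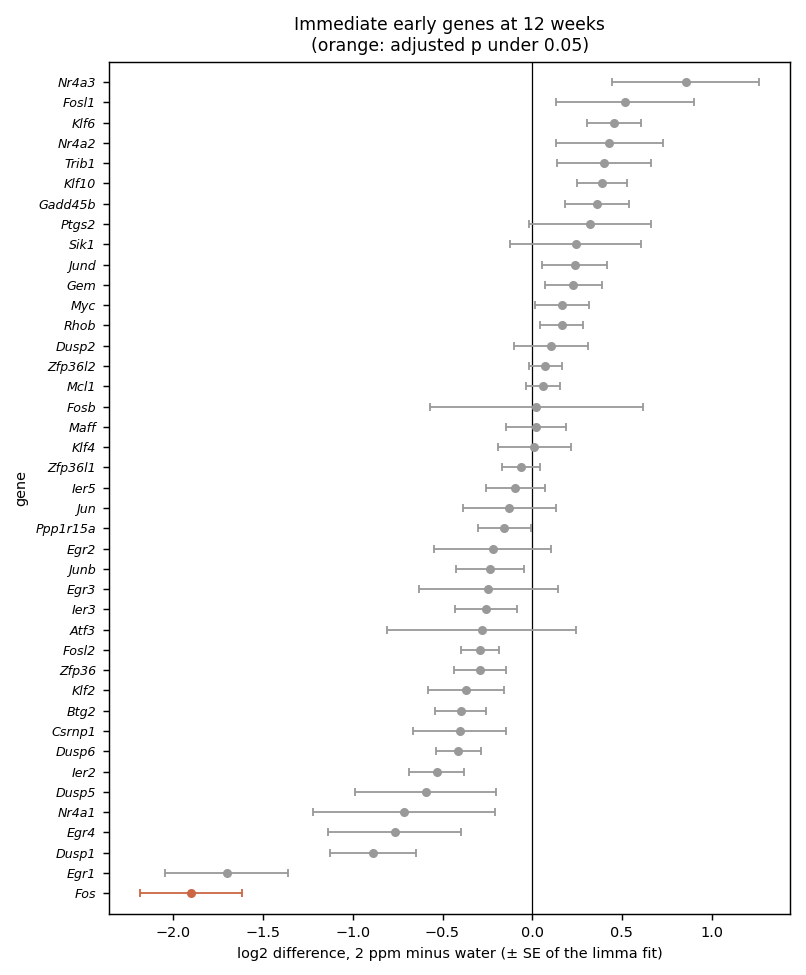
Log2 difference, 2 ppm minus water, of the 41 genes tested of the immediate early list, as points with the SE of the limma fit, ordered by size. Ccn1 is not in this list. Fos at -1.90, in orange, was the only one called, 22 genes lie left of 0 and 19 right of it, and Nr4a3 has the highest value at 0.86.

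The poly-A spike level also had a lower mean at 2 ppm than in water. It is the mean log2 signal of 24 control probe sets for transcripts added to the sample RNA before labelling, and it was 10.09 to 10.33 at 2 ppm against 10.21 to 11.17 in water. The difference was -0.502 (exact permutation p = 0.0238, two-sided, adjusted 0.167 over 7 array measures), where 5 against 5 arrays allow no p below 0.00794. With this level as a covariate, Fos had a difference of -1.47 ± 0.30 (adjusted p = 0.116) and Ccn1 one of -2.16 ± 0.47 (adjusted p = 0.149). Ier2 went to -0.225 (adjusted p = 0.949), Btg2 to -0.160, Fosl2 to -0.171, Dusp1 to -0.665 and Dusp6 to -0.428. Over the 112 genes whose alternatives were tabulated, the difference turned sign in 8, was smaller by more than 1.5 times in a further 50, larger by more than that in 2 and within it in 52. The list median went from -0.09 to 0.17, and 806 genes had an unadjusted p under 0.05 instead of 1449. Of the immediate early genes, 6 were then higher and 4 lower at that p. The list median was also above 0 without water replicate 2, at 0.02, and without 2 ppm replicate 2, at 0.01. The other 6 measures had exact permutation p-values of 0.167 or more. These were the hybridization control level, with a difference of 0.104, the ratios of 3′ to 5′ probe sets for Actb and Gapdh, the array median, the integrity number and the absorbance ratio.

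No gene was called higher at 2 ppm. Among the 12 higher genes of smallest p, Ccdc130, a coiled-coil protein related to a splicing factor, came first. Its log2 signals were 5.89, 5.19, 6.43, 6.16 and 5.56 in water and 6.70, 7.27, 7.01, 6.72 and 7.10 at 2 ppm. The groups did not overlap, and the difference was 1.11 ± 0.22 (adjusted p = 0.124, and 0.0302 without water replicate 3). A further probe set of the gene differed by -0.11, so the probe sets of Ccdc130 disagree. Leng8 differed by 0.58 ± 0.12 and the adhesion molecule Nectin1 by 0.92 ± 0.20, and both were called without 2 ppm replicate 4. The 3 probe sets of Nectin1 ran from -0.33 to 0.92.

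Fmo2, a flavin monooxygenase that oxidizes foreign compounds, had log2 signals of 10.12 to 10.96 in water and 11.15 to 11.57 at 2 ppm. The groups did not overlap, and its 5 probe sets were all higher, by 0.56 to 0.85. Ets1, a transcription factor of endothelial and lymphoid cells, differed by 0.53 ± 0.12, and its 4 probe sets by 0.27 to 0.59. Mmp7, the protease matrilysin, ran from 4.37 to 5.34 in water, near the floor, and from 5.73 to 7.02 at 2 ppm. Cmtm8, a membrane protein of the MARVEL family, differed by 1.20 ± 0.29, Tedc1, a centriole protein, by 0.81 ± 0.19, Ankrd13c by 0.69 ± 0.16 and Fam126a, a subunit of a phosphoinositide kinase complex, by 0.47 ± 0.12. Except for Ccdc130, these genes had adjusted p-values from 0.204 to 0.408.

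Cidea and Fam20a had uneven water groups. Cidea, a lipid droplet protein best known from brown fat, had log2 signals of 6.33, 7.66, 4.87, 4.60 and 4.72 in water and 6.98, 6.97, 7.25, 7.42 and 7.65 at 2 ppm. Water replicates 3 to 5 lay near the floor, while water replicate 2 was as high as the highest treated mouse. The difference was 1.62 ± 0.40 (adjusted p = 0.357), and 2.13 without water replicate 2 (adjusted p = 0.00533). Adipocyte markers, Cidea included, were spread widely in both groups. Of 9 markers 7 were higher, with a median of 0.18. Their summed linear signal was 30167 to 70069 in water and 35276 to 87745 at 2 ppm. None of them was near the floor in both groups, and their part in the result was not tested. Fam20a, a pseudokinase of the secretory pathway, stood at 4.45, 6.44, 5.51, 5.29 and 6.38 in water and 6.84, 7.11, 6.69, 7.32 and 6.75 at 2 ppm. Its groups did not overlap, with a difference of 1.33 ± 0.33 (adjusted p = 0.357).

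On the lower side, the 9 genes that followed Egr1 in order of p were not called (adjusted p of 0.254 to 0.426). Acaa1b, a thiolase of peroxisomal fat oxidation, had log2 signals of 14.05 to 14.37 in water and 13.51 to 13.81 at 2 ppm. Cyp2f2, a cytochrome P450 that activates aromatic compounds, ran from 12.38 to 13.30 in water and from 11.91 to 12.58 at 2 ppm, with a difference of -0.78 ± 0.21. In Acaa1b the groups did not overlap, and in Cyp2f2 they did. Nans, the synthase of sialic acid, differed by -0.34 ± 0.08, the cyclophilin Ppie by -0.41 ± 0.10 and the Sin3 complex subunit Sap130 by -0.38 ± 0.10, which was called without water replicate 1 (adjusted p = 0.0424). The polarity protein Crb1 differed by -1.10 ± 0.29, Elmod3, a regulator of small GTPases, by -0.58 ± 0.13, Abhd14a by -0.36 ± 0.08 and the actin-binding adaptor Klhl17 by -0.35 ± 0.09. The other probe set of Abhd14a differed by 0.0032 and that of Klhl17 by -0.09. Of 55 named genes with more than 1 probe set, 19 had probe sets in both directions.

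**Figure D3:**
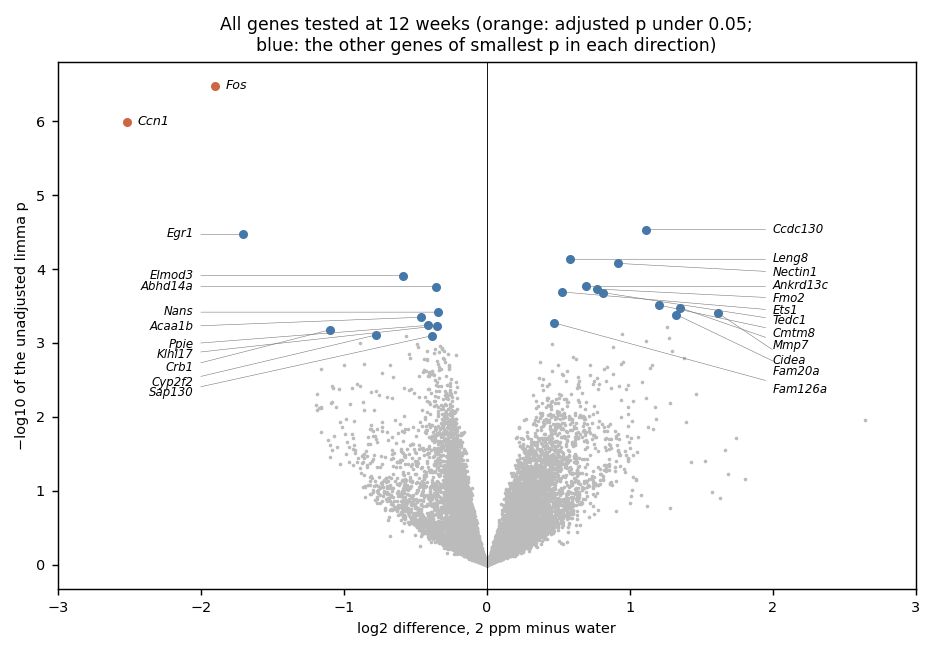
Log2 difference, 2 ppm minus water, against -log10 of the unadjusted limma p for all 14618 genes tested, as grey dots, with the called genes in orange and the other genes of smallest p in each direction in blue. Fos at -1.90 and Ccn1 at -2.52 lie above all others, and Egr1 at -1.70 and Ccdc130 at 1.11 are next.

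Genes of the handling of arsenic and of oxidative stress did not pass the test. Hmox1, the heme oxygenase that NRF2 and arsenite are known to induce, had log2 signals of 8.80, 8.38, 8.55, 8.35 and 8.12 in water and 8.72, 8.72, 8.94, 8.98 and 9.34 at 2 ppm. Only water replicate 1 reached into the 2 ppm range, and the difference was 0.50 ± 0.15 (adjusted p = 0.426). Gsto2, a glutathione transferase of the omega class, stood at 8.59, 9.03, 8.91, 8.68 and 9.06 in water against 8.53, 8.28, 8.16, 8.50 and 7.95 at 2 ppm. The groups did not overlap, with a difference of -0.57 ± 0.15 (adjusted p = 0.426). The methyltransferase As3mt differed by -0.16 ± 0.14, the quinone reductase Nqo1 by -0.15 ± 0.14 and Gclm, a subunit of the first enzyme of glutathione synthesis, by -0.09 ± 0.08. The other probe set of Gclm differed by 0.18.

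The metallothioneins, which bind metal ions, had differences near 0. Mt1 differed by -0.08 ± 0.13 and Mt2 by -0.10 ± 0.14, and with the poly-A covariate by 0.21 and 0.07. The zinc exporter Slc30a1 differed by 0.26 ± 0.15, and the metal importer Slc39a8 by 0.83 ± 0.26 with groups that did not overlap. In the list of arsenic uptake and methylation, 13 of 22 genes were lower with a median of -0.05, in the metal response list 10 of 17 were higher with a median of 0.05, and in the NRF2 list 19 of 32 were lower with a median of -0.05. Over the alternatives these 3 medians ran from -0.105 to 0.055, from -0.007 to 0.167 and from -0.105 to 0.020. Within these lists the detoxifying hydrolase Ephx1 differed by -0.25 ± 0.08 without overlap, catalase (Cat) by 0.43 ± 0.15, the glutathione transferases Gstm4 and Gsta3 by -0.30 ± 0.12 and 0.23 ± 0.10, and the exporters Abcg2 and Abcb1a by 0.38 ± 0.17 and 0.65 ± 0.31. With the poly-A covariate Abcb1a was at -0.0331. None was called.

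Matrix and vessel genes included several with a higher mean. Lox, which crosslinks collagen and elastin, had log2 signals of 8.08, 7.36, 7.88, 7.81 and 7.89 in water and 8.28, 8.59, 8.97, 8.83 and 8.74 at 2 ppm. Postn, a matrix protein of remodelling tissue, stood at 10.08, 8.97, 9.34, 8.99 and 9.44 in water and 10.22, 10.51, 10.46, 10.22 and 10.37 at 2 ppm. In both genes all treated mice lay above all water mice. The differences were 0.88 ± 0.24 (adjusted p = 0.426) and 0.99 ± 0.37 (adjusted p = 0.451), and elastin (Eln) differed by 0.49 ± 0.20. With the poly-A covariate Lox was at 0.333 (adjusted p = 0.949) and Postn at 0.230 (adjusted p = 0.994), and the 3 probe sets of Lox ran from -0.25 to 1.10. Of 38 collagen and matrix genes 24 were higher, with a median of 0.06 and none called. Non-overlapping groups with the 2 ppm mice higher made up 0.951% of all genes.

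The endothelial markers Ptprb, Pecam1, Tie1 and Emcn differed by 0.51 ± 0.17, 0.37 ± 0.14, 0.62 ± 0.25 and 0.59 ± 0.25. They are 4 of 12 markers, of which 8 were higher, with a median of 0.09 and a summed linear signal of 5781 to 7252 in water and 5510 to 7730 at 2 ppm. The leukocyte adhesion molecules Sele and Vcam1, which activated endothelium carries, differed by 0.64 ± 0.20, without overlap, and by 0.36 ± 0.16. In the NF-kB and inflammation list they stand beside Lcn2 at 0.66 ± 0.24, Bcl3 at 0.50 ± 0.22 and S100a8 at -0.81 ± 0.31. Of its 24 genes 13 were lower, with a median of -0.02. Interferon response genes were lower in 20 of 27, with a median of -0.11 and Ifi35 at -0.28 ± 0.10. None was called in either list.

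Genes of the mitotic cell cycle were higher in 27 of 33, with a median of 0.28 against -0.01 over all genes and none called. Nek2, a kinase of the centrosome, had log2 signals of 4.26, 5.68, 5.48, 4.86 and 5.54 in water and 6.09, 6.57, 5.52, 6.44 and 7.62 at 2 ppm. Replicate 3 at 2 ppm lay within the water range, and the difference was 1.28 ± 0.44. The cytokinesis genes Kif23 and Anln differed by 0.86 ± 0.36 and 0.50 ± 0.23. The 4 probe sets of Nek2 ran from -0.01 to 1.28 and the 3 of Kif23 from -0.27 to 0.86. With the poly-A covariate Kif23 was at 0.321 (adjusted p = 0.989), Anln at 0.448 and Nek2 at 1.73. The lowest member of the list was at -0.35. These transcripts are dim in the adult bladder, with a mean log2 signal over the list of 6.52 in water and 6.84 at 2 ppm. In the DNA replication list 25 of 41 were higher, with a median of 0.12. There the nuclease Fen1 differed by 0.70 ± 0.32, by 0.206 without water replicate 3 and by -0.21 on its other probe set. Rrm2, a subunit of the enzyme that makes deoxynucleotides, differed by 0.41 ± 0.19, the polymerase Pole by -1.16 ± 0.34, Rpa1 by -0.26 ± 0.08 and Gins2 by -0.49 ± 0.23. The other probe set of Gins2 differed by 0.05.

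Stress and quality control lists stayed near 0. Of 26 heat shock proteins 19 were higher, with a median of 0.09, the cochaperone Bag1 at -0.22 ± 0.07 and Dnajb4, without overlap, at 0.45 ± 0.29. Of 32 genes of the unfolded protein response 17 were higher, with a median of 0.05, and its sensor Atf6 differed by 0.39 ± 0.16 without overlap, Dnajb9 by 0.32 ± 0.14 and Dnajc3 by 0.35 ± 0.17. Targets of p53 were lower in 15 of 25, with a median of -0.10, Xpc at -0.31 ± 0.09 and Pmaip1 at 0.56 ± 0.23. DNA repair genes were lower in 18 of 35, with a median of -0.01, Apex1 at -0.22 ± 0.09, Xpa at 0.33 ± 0.15 and Lig4 at 0.84 ± 0.40. With the poly-A covariate Dnajb4 was at -0.0423 and Dnajc3 at 0.0253, and the 3 probe sets of Dnajb4 ran from -0.13 to 0.67. None of these genes was called.

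Proteasome subunits were lower in 20 of 31, with a median of -0.05, and Psmb3 differed by -0.23 ± 0.08 without overlap. Psmd4, Psmd13 and Psmc3 differed by -0.19 ± 0.09, -0.18 ± 0.09 and -0.15 ± 0.07, and Psmc6 by 0.58 ± 0.27. Genes of oxidative phosphorylation were lower in 21 of 26, with a median of -0.07, among them Cyc1 at -0.30 ± 0.09, Sdhb at -0.22 ± 0.08 and Atp5c1 at -0.18 ± 0.07, the last without overlap. Among 23 glucocorticoid targets 16 were higher, with a median of 0.11, Klf9 at 0.46 ± 0.19, Sult1a1 at 0.78 ± 0.25 and Tgm2 at -0.21 ± 0.10. Of 21 clock genes 12 were higher, with a median of 0.05, Nr1d2 at 0.45 ± 0.22 and Csnk1d at -0.29 ± 0.09. Growth factor signalling genes were higher in 21 of 33, with a median of 0.08. The receptor Igf1r differed by 0.34 ± 0.12 without overlap on the probe set used. Its 5 probe sets ran from -0.15 to 0.34, and 3 of them were lower. The feedback inhibitors Spry4 and Spry2 differed by -0.58 ± 0.26 and -0.35 ± 0.16. The receptor Fgfr3 differed by -0.25 ± 0.12. Probe sets also disagreed in direction for Psmd13 (-0.18 to 0.39), Atp5c1 (-0.18 to 0.09) and Klf9 (-0.19 to 0.46). The same held for Tgm2 (-0.21 to 0.04), Csnk1d (-0.29 to 0.07) and Spry4 (-0.68 to 0.12). With the poly-A covariate Nr1d2 was at -0.00298 and Psmc6 at 0.0467. No gene of these 5 lists was called.

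**Figure D4:**
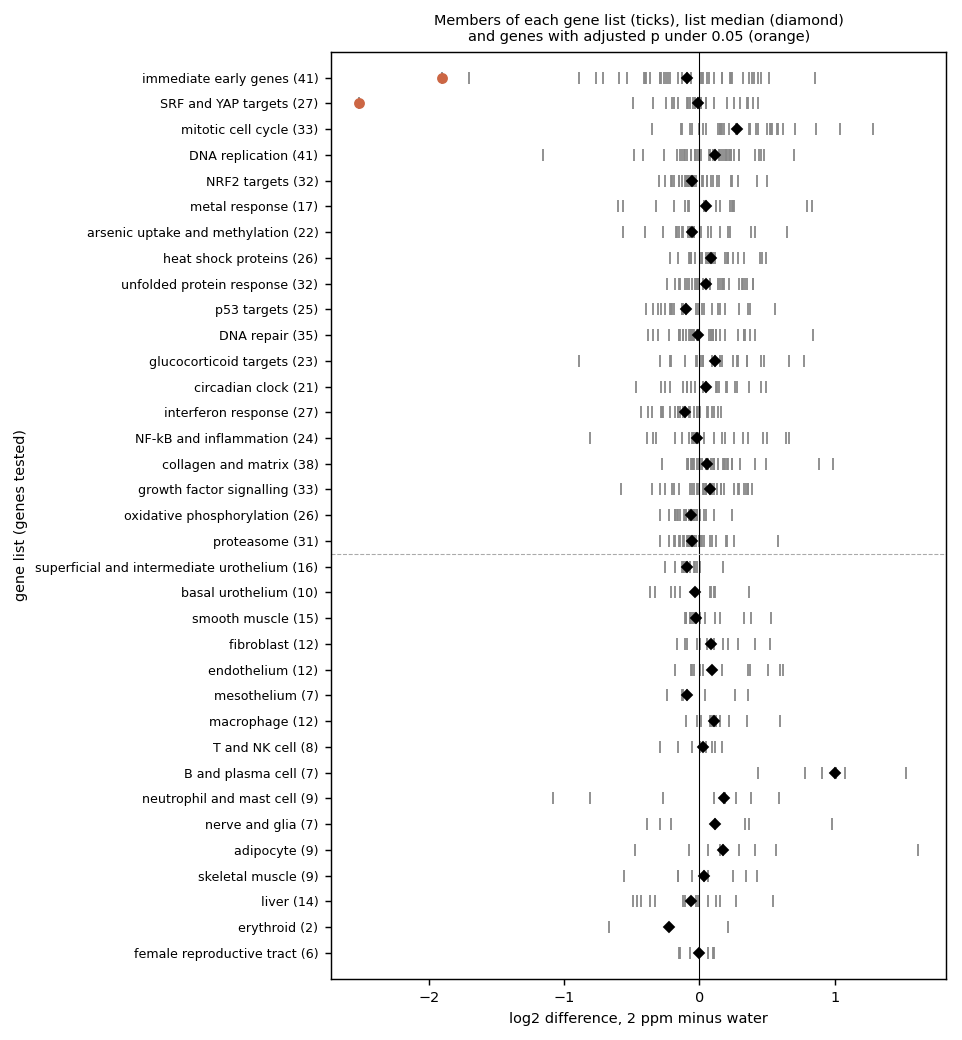
Log2 difference, 2 ppm minus water, of each gene in 19 pathway lists, above the dashed line, and 16 cell type marker lists, as ticks, with the list median as a diamond and called genes in orange. Fos and Ccn1 lie far left of their lists, whose medians are -0.09 and -0.01, and B and plasma cell markers have the highest median at 1.00, which was 0.197 without 2 ppm replicate 5.

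Markers of the main bladder layers differed little. Of 16 superficial and intermediate urothelial markers 14 were lower, with a median of -0.09. Upk3a had log2 signals of 14.56 to 14.82 in water and 14.43 to 14.53 at 2 ppm, without overlap and with a difference of -0.26 ± 0.09 (adjusted p = 0.451). With the poly-A covariate Upk3a was at -0.0981 (adjusted p = 0.977). Basal urothelial markers were split 5 to 5, with a median of -0.04, and Dst, a linker of hemidesmosomes, differed by 0.37 ± 0.17 without overlap, and by 5.68e-04 with the poly-A covariate. Smooth muscle markers were lower in 8 of 15, with a median of -0.03 and the filament protein Synm at 0.53 ± 0.25. Fibroblast markers were higher in 8 of 12, with a median of 0.08, and mesothelial markers lower in 4 of 7, with a median of -0.09. Over the alternatives the median ran from -0.145 to 0.075 for superficial and intermediate and from -0.130 to 0.076 for basal urothelial markers. It ran from -0.078 to 0.067 for smooth muscle, from -0.018 to 0.151 for fibroblast and from -0.145 to 0.037 for mesothelial markers.

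B and plasma cell markers varied most between mice. All 7 tested were higher, with a median of 1.00 that ran from 0.197 without 2 ppm replicate 5 to 1.4995 without 2 ppm replicate 4. Jchain, which joins the chains of secreted IgM and IgA, had log2 signals of 8.91, 9.47, 9.49, 7.83 and 10.91 in water and 11.46, 9.46, 11.17, 8.77 and 13.38 at 2 ppm. The groups overlapped, the highest value came from replicate 5 at 2 ppm, and the difference was 1.53 ± 0.71 (adjusted p = 0.486). The summed linear signal of the list was 1777 to 10916 in water and 1967 to 39860 at 2 ppm. Macrophage markers were higher in 10 of 12, with a median of 0.11 and Mrc1 at 0.59 ± 0.22, and T and NK cell markers in 5 of 8, with a median of 0.03. Neutrophil and mast cell markers were higher in 6 of 9, with a median of 0.18, while Mpo, the myeloperoxidase of neutrophils, differed by -1.08 ± 0.37 without overlap and was near the floor at 2 ppm.

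Markers of tissue next to the bladder were few and mixed. Nerve and glia markers were higher in 4 of 7 (median 0.11, Tubb3 0.98 ± 0.39), skeletal muscle markers in 5 of 9 (median 0.03, Mylpf -0.56 ± 0.24), and those of the female reproductive tract in 3 of 6 (median 0.00). Liver markers were lower in 9 of 14, with a median of -0.06 and Ttr at -0.43 ± 0.17. Of the 2 erythroid markers tested, Alas2 differed by -0.67 ± 0.27. No cell type marker was called.

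The other 12-week doses share the same water arrays, so their differences from water are given side by side only. At 0.5, 2, 10 and 50 ppm, Fos differed from water by -1.15, -1.90, -1.49 and -1.88, Ccn1 by -1.59, -2.52, -2.40 and -2.84, and Egr1 by -0.55, -1.70, -2.82 and -2.87. The levels of Fos were 12.92 ± 0.57 (SD, n = 5) in water and 11.77 ± 0.81, 11.02 ± 0.51, 11.43 ± 0.16 and 11.04 ± 0.26 at the doses in rising order, and the ranges of the 4 doses overlapped. Ccdc130 differed by 1.18, 1.11, 1.31 and 1.07, and Cidea by 1.80, 1.62, 1.48 and 1.40. The same water mice enter all of these differences, those of Fos, Ccn1 and Egr1 included, and their part was not tested. The poly-A spike level was 10.71 ± 0.36 in water and 10.30 ± 0.24, 10.21 ± 0.09, 9.65 ± 0.21 and 9.84 ± 0.39 at the rising doses, and the level of 18 hybridization control probe sets was 11.20 ± 0.10, 11.34 ± 0.32, 11.31 ± 0.17, 11.76 ± 0.26 and 11.72 ± 0.36.

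**Figure D5:**
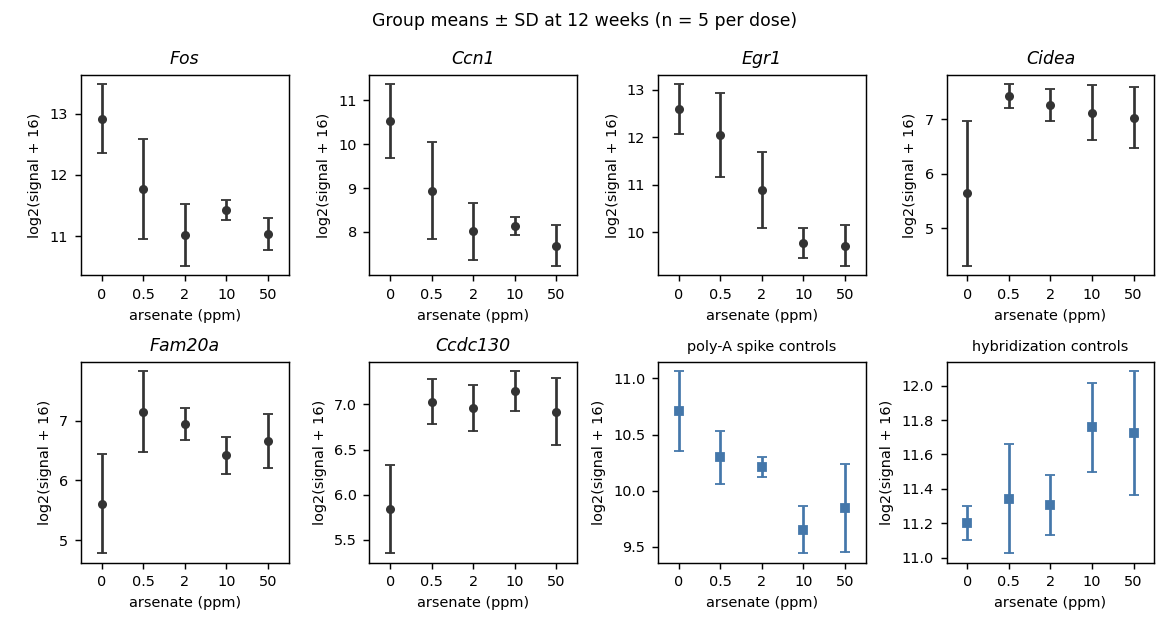
Group means ± SD (n = 5 mice) of log2(signal + 16) at 12 weeks over arsenate doses of 0, 0.5, 2, 10 and 50 ppm, evenly spaced, for 6 genes and for the spike and hybridization controls. Fos runs from 12.92 in water to 11.02 at 2 ppm while the poly-A spike level runs from 10.71 to 10.21, and the hybridization controls are highest at 10 ppm, at 11.76.

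Contrasts of 2 ppm with the other doses take no water mean. The water arrays remain in the fit and enter its SE and p-values. Against 0.5 ppm a single gene was called, 0.00684% of all genes. Ddr2, a collagen receptor kinase, was 9.97 ± 0.21 at 2 ppm and 10.85 ± 0.13 at 0.5 ppm, a difference of -0.88 ± 0.14 (adjusted p = 0.0194), and its level in water was 9.92 ± 0.18. It was not called without any 1 of 2 ppm replicates 1, 3 and 4 or 0.5 ppm replicates 3, 4 and 5. Fos and Ccn1 had differences of -0.75 and -0.93 between 2 and 0.5 ppm that did not pass the test (adjusted p of 0.63 and 0.675).

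Against 10 ppm, 68 genes were higher at 2 ppm (0.465%) and 79 lower (0.540%), 1.01% in all. The 5 largest on the higher side were Nek2 at 1.83 ± 0.44, the matricellular gene Ccn5 at 1.73 ± 0.37, Lbh, a regulator of development, at 1.49 ± 0.23, the spindle pole gene Wdr62 at 1.43 ± 0.32 and Ssc5d at 1.22 ± 0.26. On the lower side they were the endoplasmic reticulum isomerase Pdia4 at -1.08 ± 0.19, 4932431P20Rik at -1.05 ± 0.16, Tmem25 at -0.999 ± 0.23, the forkhead factor Foxo3 at -0.84 ± 0.11 and 5430405H02Rik at -0.82 ± 0.21. Nek2 at 10 ppm, with a mean of 4.62, was near the floor. Egr1 was 10.89 ± 0.80 at 2 ppm and 9.78 ± 0.32 at 10 ppm, a difference of 1.11 that did not pass the test (adjusted p = 0.114).

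Against 50 ppm, 32 genes were higher at 2 ppm (0.219%) and 33 lower (0.226%), 0.445% in all. Lbh led again with 1.35 ± 0.23, before Bcat2, an enzyme that breaks down branched amino acids, at 1.20 ± 0.17, the calcium channel Cacna1d at 1.03 ± 0.24, Mocs1 at 0.99 ± 0.21 and the junction protein Jup at 0.95 ± 0.16. The lower side was led by 4932431P20Rik at -1.01 ± 0.16, Foxo3 at -0.79 ± 0.11, Ypel2 at -0.67 ± 0.13, Xist, the RNA that coats the inactive X chromosome, at -0.66 ± 0.12 and Snrnp48 at -0.60 ± 0.14. Lbh ran from 9.86 to 10.38 at 2 ppm, from 8.64 to 8.94 at 10 ppm and from 8.08 to 9.32 at 50 ppm, without overlap, and from 8.65 to 10.15 in water. Foxo3 ran from 10.15 to 10.36 at 2 ppm, below 10.94 to 11.31 at 10 ppm and 10.72 to 11.43 at 50 ppm. The hybridization controls above differ between the same doses, and with their level as a covariate 97 genes were called against 10 ppm (69 higher, 28 lower) and 52 against 50 ppm (40 higher, 12 lower). Without 2 ppm replicate 4 the counts were 132 and 88. Leaving out any other array of the groups gave 41 to 82 against 10 ppm and 11 to 42 against 50 ppm.

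After 1 week at 2 ppm, against water mice of that harvest, Fos differed by -0.61 ± 0.30, Ccn1 by -1.19 ± 0.57 and Egr1 by -0.46 ± 0.30. None was called at that time. The integrity number of those 2 ppm arrays was 7.2 to 9.7 with a median of 7.2, against 8.8 to 9.7 in the 1-week water arrays. Its part in the 1-week effect was not tested. The test of the difference between the 12-week and the 1-week effect called 0 of 14618 genes with limma, and 869 had an unadjusted p under 0.05 (5.94%). For Fos the effects differed by -1.29 ± 0.44 and for Ccn1 by -1.33 ± 0.74 (adjusted p of 0.795 and 0.844). The 3 genes of smallest p were Mlkl, a protein of necroptosis, at -0.88 ± 0.20, the recombination factor Psmc3ip at -0.90 ± 0.20 and Cidea at 1.89 ± 0.46, with adjusted p of 0.461, 0.461 and 0.618. Cidea was called there without 12-week water replicate 2 (adjusted p = 9.26e-04).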

How the data were processed

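Bladder RNA, taken up in Trizol and cleaned by a Qiagen procedure, was biotin-labelled for 1-colour Affymetrix Mouse430_2 arrays, per the labels' protocols. Each deposited value is the linear intensity of a probe set. GCOS 1.0 is named in the submitters' processing notes, with settings not given in the sources used here. Every array had a 2% trimmed mean of 500.003 to 500.004, and the values were not rescaled. The table holds 45101 probe sets, of which 34945 have 1 gene in the platform annotation, 932 several, 9160 none and 64 are controls. Probe sets with 1 gene cover 18193 genes. Gene IDs of 34741 of them are in the RefSeq table.

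On log2(value + 16), each gene was represented by its single-gene probe set of highest mean and kept where 4 or more of the 49 arrays had it above their 40th percentile, which left 14618 genes. limma 3.58.1 in R 4.3.3 (lmFit, eBayes with a trend) was fitted to the 25 arrays of 12 weeks with a mean per group, and the difference between harvests to all 49. The steps were tested on simulated data. Array measures were compared with two-sided exact permutation tests. Gene lists, 19 of pathways and 16 of cell type markers, are described by counts and medians without a test. Tables were read with data.table (version 1.17.8) and plots drawn with matplotlib 3.10.9 under Python 3.11.15. Promoters come from RefSeq.

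The groups compared, the members and the lists were chosen with earlier results of these data known. The rule names every called gene, the 12 genes of smallest p in each direction, members of each list with small p or groups without overlap, 8 arsenic related genes, and the genes leading the other contrasts. Outside that rule, genes were named after their values were seen: Btg2, Fosl2, Egr4, Klf10, Nr4a1, Nr4a3, Jun, Junb, Ccn2, Becn1 and the genes whose promoters are printed. Alternatives were other offsets, normalizations, filters, probe set choices, array sets, array weights, a fit without trend, covariates, a replicate block, a 1.5-fold minimum and leaving out each array. The hybridization control covariate between doses and harvests was added after seeing the data.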

Additional observations from a re-analysis of the deposited data

Results flagged for a closer look

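A value far from the other 4 of its group, by Dixon's criterion for groups of 5, was found in 10 of 72 groups of 5 mice, over 36 genes and array measures. Chance gives such a value in about 1 of 20 groups. Ccn1 was 9.06 in water replicate 3, where the others ran from 10.64 to 11.22, and 9.15 in 2 ppm replicate 4, where the others ran from 7.60 to 7.99. These are the mice through which its groups touch. The same 2 ppm mouse stood at 10.40 for Abhd14a, against 10.09 to 10.17, and at 7.81 for Nectin1, against 8.52 to 8.67. Ankrd13c was 8.64 in water replicate 2, below 9.25 to 9.46, and Sap130 was 9.03 in water replicate 1, below 9.49 to 9.60. As3mt was 8.29 in water replicate 3, below 8.76 to 8.87, and 8.24 in 2 ppm replicate 3, below 8.55 to 8.66. Mt1 was 12.95 in 2 ppm replicate 5, below 13.08 to 13.10. The median log2 signal of the array was 6.69 in water replicate 2, below 6.94 to 6.97 in the other water arrays. All values are log2(signal + 16).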

How the results depend on the processing

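The count of 2 genes at 2 ppm against water, Fos and Ccn1, was 2 with offsets of 1 and 64, quantile normalization, equal medians, no filter, the 60th percentile filter, the 10 arrays alone, the integrity number or hybridization controls as a covariate and a 1.5-fold minimum, and 3 with array weights, which added Cidea (adjusted p = 0.00927). It was 4 with all single-gene probe sets, which added a further Ccn1 probe set and Becn1, and 1, Fos, with all 49 arrays in 1 fit (Ccn1 adjusted p = 0.0589) and without a trend (0.0535). With a covariate for the poly-A spikes it was 0, and 806 genes had an unadjusted p under 0.05. Leaving out 1 array gave 1 to 5 genes. The cause of these changes was not tested.

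Leaving out 1 array gave 0 to 4 genes against 0.5 ppm, 41 to 132 against 10 ppm, 11 to 88 against 50 ppm and 0 to 1 for the difference between harvests. The poly-A covariate gave 899 genes (381 higher, 518 lower) against 10 ppm and 131 (41 higher, 90 lower) against 50 ppm, where the fit without it called 147 and 65, and the hybridization control covariate gave 97 against 10 ppm. The difference in the poly-A spike level itself was -0.509 and -0.480 with offsets of 1 and 64, and -0.627 to -0.386 without 1 array. Against 10 ppm, Lbh, Pdia4, 4932431P20Rik and Foxo3 were called in all 18 alternatives, and against 50 ppm so were Lbh, Bcat2, Jup, 4932431P20Rik, Foxo3 and Xist. The other named genes of these contrasts lost their call in 3 to 15 alternatives.

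Over 112 named genes and 2785 values under alternatives, 2754 kept direction and side of the threshold, 5 lost a call, 7 gained one and 19 changed sign, in 8 genes. With the poly-A covariate, Abcb1a was -0.0331, Ccn2 0.0499, Dnajb4 -0.0423, Jun 0.0506, Junb 0.202, Mt1 0.210, Mt2 0.0681 and Nr1d2 -0.00298. Ccn2 was 5.89e-04 with an offset of 64, 0.0630 with the integrity number and 0.00804 with hybridization controls as a covariate. Leaving out 1 array gave -0.464 to 0.185 for Ccn2, -0.352 to 0.00304 for Jun and -0.121 to 0.00633 for Mt1.

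No strong pairing of the mice by replicate number was seen. Deviations of same-numbered water and 2 ppm arrays correlated by -0.043 to 0.047, and 1 of 5 arrays at 2 ppm matched its own number best. Correlations of this kind cannot exclude a weaker pairing. With the replicate block the count against water was 2 (Fos adjusted p = 0.00207, Ccn1 0.00593), against 0.5 ppm 0, against 10 ppm 150 (85 higher, 65 lower), against 50 ppm 77 and between harvests 0. Array signal over background limits what can be said of genes near the floor.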
